A study of Rattus norvegicus with 11 samples.

Results

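Chemokines are small secreted proteins that guide leukocytes, and they act through receptors on the cells that follow them. The genes described here are all those that an Affymetrix rat array names as a chemokine or a chemokine receptor, chosen by the start of the gene symbol (Ccl, Ccr, Cxcl, Cxcr, Cx3cl, Cx3cr, Xcl, Xcr or Ackr, followed by a digit) among probe sets with a single gene symbol. The rule found 58 probe sets of 31042, for 45 genes of 14217. They comprise 16 CC chemokines, 11 CXC chemokines, Cx3cl1 and Xcl1, and among the receptors 6 CC receptors, 5 CXC receptors, Cx3cr1 and 4 atypical receptors. Of 57 family genes in RefSeq, 12 had no probe set with a single name, among them Ccl12, Ccl25, Ccr7, Cxcl17, Cxcr6 and Xcr1. The rule uses no measured value, although it was chosen with earlier results of these data known.

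The values come from whole lung of Dahl salt-sensitive rats, a strain that becomes hypertensive on a high-salt diet, weighing 250 to 350 g. One group breathed room air (normoxia, n = 4 arrays), another was kept in hypoxia at an inspired oxygen fraction of about 9.5% (n = 4), and the last was kept in that hypoxia and given SU5416, an inhibitor of the receptors for vascular endothelial growth factor (n = 3). The series text gives vehicle as the treatment of the first and second groups, and the lungs were taken at 3.5 weeks, after the pulmonary vessels had been flushed through the pulmonary artery. A further group that also received sorafenib was not analysed here, and none of the groups analysed received SU5416 in room air, so the inhibitor and its combination with hypoxia cannot be told apart. The labels do not tie each array to an animal of its own, so the p-values measure the spread between these arrays, which may be partly technical.

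As background, chemokines fall into families by the spacing of their first cysteines, and most signal through receptors coupled to inhibitory G proteins that turn the cell towards the source. Homeostatic chemokines such as Cxcl12, Ccl19, Ccl21 and Cxcl13 place resident and lymphoid cells, whereas inflammatory chemokines such as Ccl2, Cxcl1 and Cxcl10 are switched on by cytokines and injury. Atypical receptors bind chemokines without G protein signalling and clear or store them. In the lung, these proteins are known for bringing monocytes, neutrophils and lymphocytes to airspaces and vessel walls.

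Signals are on the log2 scale, 1 value per probe set and array, so that a difference of 1 is a change of 2-fold. A probe set whose group mean lay under 5.72, the 95th percentile of the array's 27 Bacillus control probe sets, was taken as at background in that group. By this measure 41 of the 45 genes (91.1%) were above background in at least 1 group, near the share over all genes (12957 of 14217). Ccl24, Ccl28, Ccr10 and Xcl1 were above it in none. Where a gene had several probe sets, the one of highest mean over all arrays stands for it. The array medians lay between 7.8 and 8.01. Normoxia arrays 1 and 2 stood apart in the gap between the 3′ and 5′ probe sets of beta-actin, a sign of RNA integrity, with 2.24 and 1.33 against 0.51 to 0.87 on the other 9 arrays. Markers above background were 7 of 7 for alveolar type II cells, 4 of 4 for alveolar type I cells and 7 of 7 for endothelium. So were 4 of 4 for cardiac muscle and most of all genes, so this level does not test the tissue label.

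In chronic hypoxia alone, no difference of a chemokine or receptor gene from normoxia passed the test. None of the 45 genes was called by limma at an adjusted p below 0.05 (Benjamini-Hochberg over all probe sets), where 0% of all genes were, and 0 of the 58 probe sets were, where 0.00644% of all probe sets were. At an unadjusted p below 0.05 there were 5 genes (11.1%, against 9.59% of all genes): Ccl21 was higher, where 4.30% of all genes were, and Cxcl11, Cx3cr1, Ackr4 and Xcl1 were lower, where 5.29% were. The arrays of hypoxia and normoxia did not overlap for 2 genes, Ccl21 and the transmembrane chemokine Cxcl16, both higher, which is 4.44% of the members against 5.93% of all genes (2.93% higher and 3.00% lower). The median difference of the 45 genes was −0.12, with 14 of 45 higher in hypoxia, against −0.01 over all genes, 48.9% of them higher. This split moved with the scaling, for 20 of 45 were higher after quantile normalization and after centring on the array median (medians −0.03 and −0.03). Without normoxia arrays 1 and 2, 11 genes did not overlap, 3 higher and 8 lower, where 29.6% of all genes did not.

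With SU5416 added to hypoxia, a few members stood apart from normoxia on every array. The lymphatic chemokine Ccl21 was 1.82-fold higher, the stromal chemokine Cxcl12 1.53-fold higher and its scavenging receptor Ackr3 1.57-fold higher, while Ccr6, a receptor of B cells and T helper cells, was 2.04-fold lower. None of the 45 genes was called (limma adjusted p; background 0.0844% of all genes), nor any of the 58 probe sets (background 0.0612%). At an unadjusted p below 0.05 there were 5 genes, 4 higher (Cxcl12, Ackr3, Ccl21 and Cxcl3) and 1 lower (Ccr6), which is 11.1% against 12.7% of all genes (6.02% higher, 6.70% lower). Arrays did not overlap for 6 genes (13.3%, against 13.4% of all genes, 6.59% higher and 6.83% lower): Ccl21, Ackr3, Cxcl12, Ccl19 and Cxcl3 higher, and Ccr6 lower. Both shares lay near those of all genes. The median difference was 0.09 with 28 of 45 higher, against −0.02 over all genes with 47.4% higher. Without normoxia arrays 1 and 2 that median was −0.05 with 21 of 45 higher, and 15 genes did not overlap (9 higher, 6 lower) where 35.0% of all genes did not.

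Set against hypoxia alone, most of the members had higher means with SU5416. Of the 45 genes, 34 were higher and the median difference was 0.21, against −0.01 over all genes with 49.0% higher, and 33 of 45 were higher after quantile normalization and after centring on the median. None was called (limma adjusted p; background 0.0352% of all genes and 0.0258% of all probe sets). At an unadjusted p below 0.05 there were 7 genes (15.6%, against 7.30% of all genes, 3.67% higher and 3.63% lower): Ccl2, Ccl7, Cxcl10, Cxcl11, Cxcl12 and Ackr3 higher, and Ccr6 lower. Arrays did not overlap for 10 genes (22.2%, against 12.6% of all genes), of which 9 were higher (20%, against 6.07%), namely those 6 with Cxcl3, Ccr1 and Cxcr2, while Ccr6 was lower (6.53% of all genes were). After quantile normalization 8 genes did not overlap (7 higher, 1 lower), where 13.2% of all genes did not. The summed signal of the 45 genes was 15.36 to 15.49 on the 3 SU5416 arrays. It was lower on the hypoxia arrays, at 15.13 to 15.24, and on the normoxia arrays, at 15.07 to 15.25. The sum is of linear signals, so bright genes such as Cxcl3, Ackr3 and Cxcl12 weigh most in it and dim genes add little. Any 2 of the 3 comparisons share a group of arrays, so their values stand side by side and are not independent.

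By family, the excess of higher means with SU5416 over hypoxia ran through both kinds of chemokine. CC chemokines were higher in 13 of 16 (12 of 16 after either other scaling) with a median of 0.19, and CXC chemokines in 9 of 11, also after either scaling, with a median of 0.28. Among receptors the counts were 4 of 6 for CC receptors (median 0.17), 4 of 5 for CXC receptors (0.26) and 2 of 4 for atypical receptors (0.18), the same after either scaling. In hypoxia against normoxia, CC chemokines were lower in 13 of 16 (11 of 16 after either scaling, median −0.15), and CXC chemokines were higher in 6 of 11 (7 of 11 after either scaling, median 0.03).

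**Figure D1:**
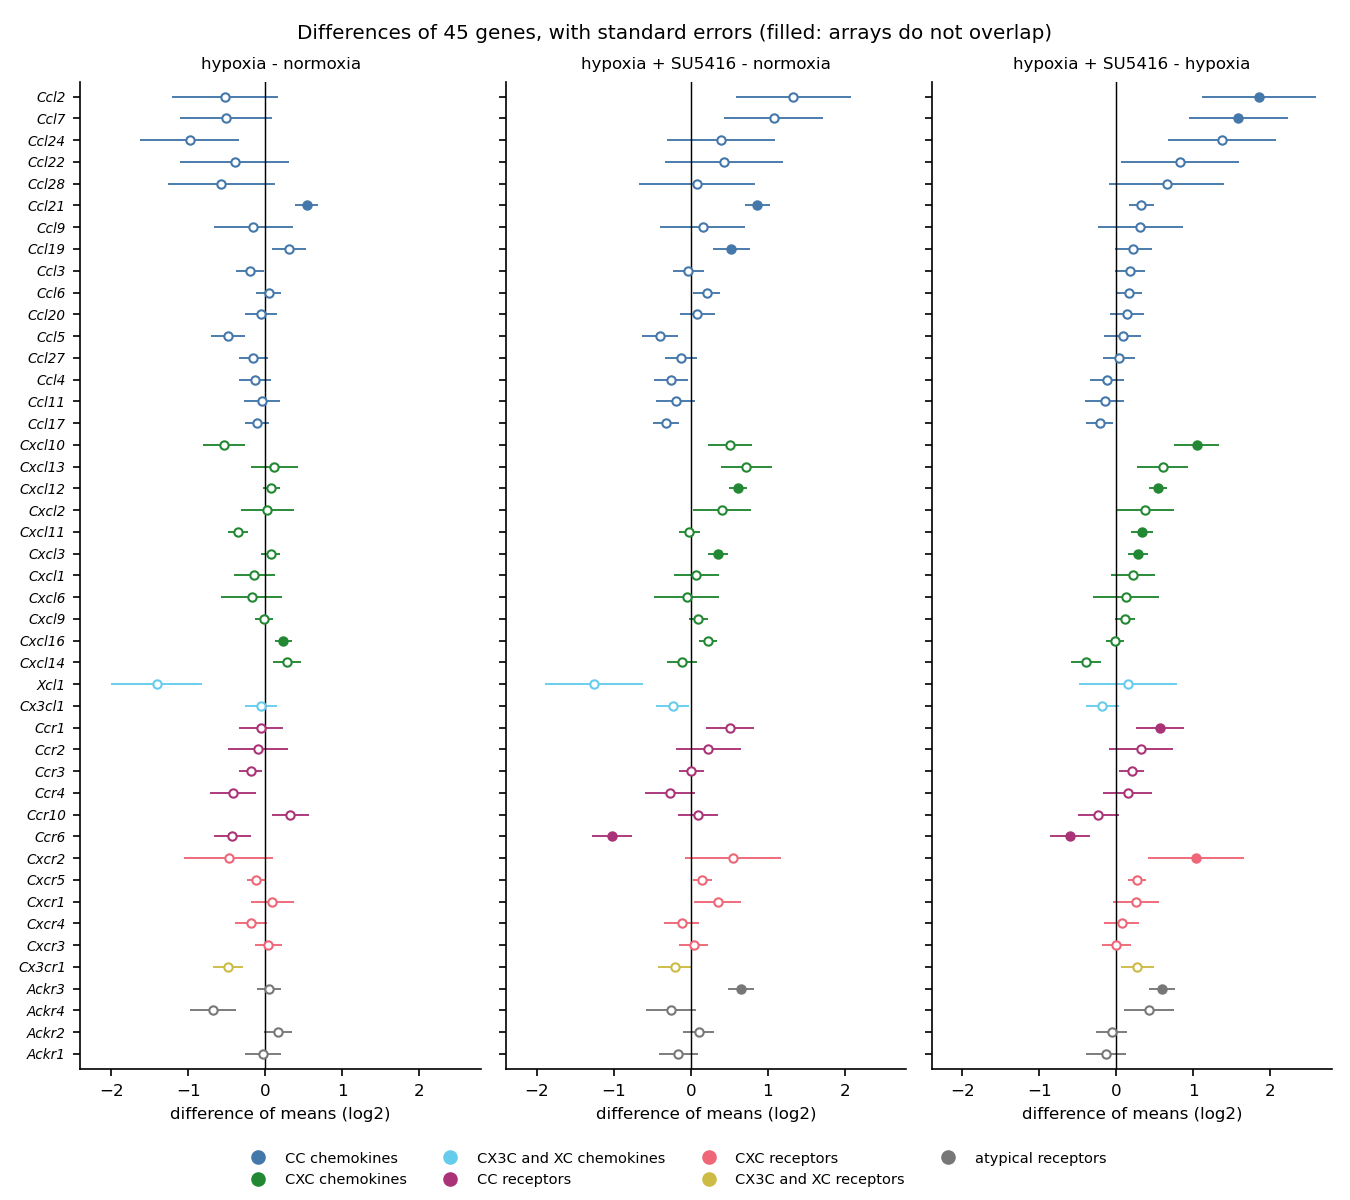
Differences of group means (log2, horizontal axis) for the 45 chemokine and receptor genes in the 3 comparisons, with standard errors as bars and colours by family; filled points mark genes whose arrays did not overlap. Filled points number 2, 6 and 10 from left to right, and in the right panel 34 of 45 points lie above 0.

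The plot of all 45 differences shows wide bars for some dim genes, such as Ccl22, Ccl24 and Ccl28, and narrow ones for bright genes such as Cxcl12 and Cxcl16. Signal level alone did not order the bars. Ccl9, with means of 8.78 to 9.09, had SEs of 0.51 to 0.55, and Ccr10, at background, had 0.24 to 0.26. Ccl2, above background in every group mean, had wide bars too, and its normoxia arrays ran from 5.02 to 8.74. In whole lung, fewer cells of a type and less RNA per cell cannot be told apart, and this holds for every gene described.

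Cxcl12 is the stromal chemokine that holds progenitor cells and lymphocytes in place through its signalling receptor Cxcr4, and Ackr3 removes it from the surroundings. On its brightest probe set Cxcl12 stood at 11.04, 11.18, 11.23 and 10.94 on normoxia arrays 1 to 4, at 11.15, 11.33, 11.13 and 11.10 in hypoxia, and at 11.89, 11.62 and 11.63 with SU5416. Every SU5416 array lay above all 8 other arrays, and normoxia and hypoxia overlapped. Against normoxia the difference was 0.62 (SE 0.12, 1.53-fold, limma adjusted p = 0.10, between 0.0253 and 0.308 over 20 alternative analyses). It passed the threshold in 2 of these, with dim probe sets left out (limma adjusted p = 0.0267) and with the trend and robust options (limma adjusted p = 0.0253). Against hypoxia it was 0.54 (SE 0.12, 1.45-fold, limma adjusted p = 0.330, between 0.125 and 0.634), and hypoxia differed from normoxia by 0.08 (95% interval −0.16 to 0.32).

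The other Cxcl12 probe sets did not all follow this order. The dimmest read 7.69, 7.79, 8.73 and 8.16 in normoxia, 8.95, 8.62, 8.08 and 8.19 in hypoxia, and 9.29, 9.06 and 8.84 with SU5416. Its SU5416 arrays all lay above normoxia (difference 0.97, SE 0.28, limma adjusted p = 0.217) and overlapped with hypoxia. The remaining probe set was highest in hypoxia, at 12.03, 11.83, 11.30 and 10.60 against 10.06, 10.51, 10.53 and 10.60 in normoxia and 10.67, 10.89 and 10.81 with SU5416. There hypoxia exceeded normoxia by 1.01 (SE 0.28, limma adjusted p = 0.295) and SU5416 stood 0.65 below hypoxia, the opposite sign to the other probe sets. All 3 probe sets were higher with SU5416 than in normoxia, by 0.37 to 0.97.

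**Figure D2:**
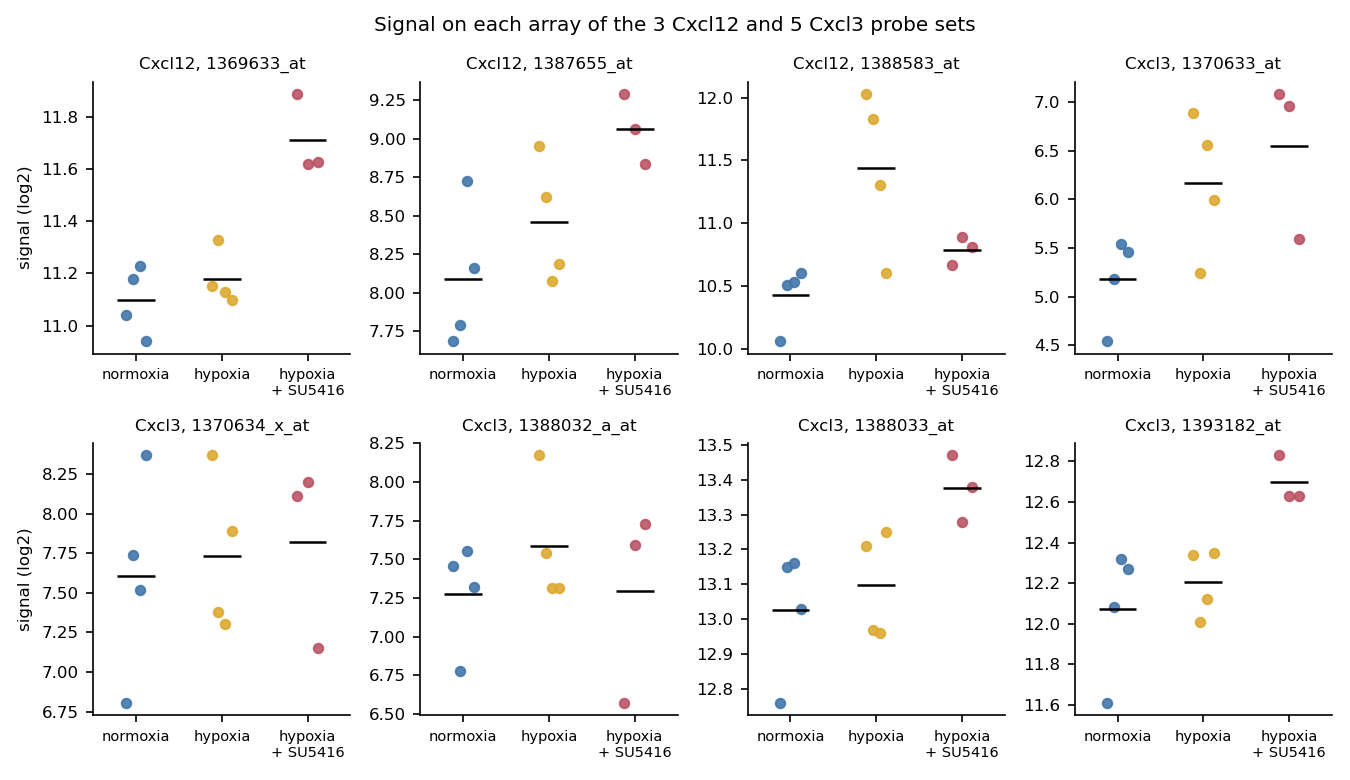
Signal (log2, vertical axis) on each array for the 3 probe sets of Cxcl12 and the 5 probe sets of Cxcl3 in normoxia, hypoxia and hypoxia with SU5416; points are arrays and lines are group means. Probe sets of 1 gene place the SU5416 arrays differently: 1 of the 3 for Cxcl12 is highest in hypoxia, and 2 of the 5 for Cxcl3 overlap across all groups.

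Ackr3 takes up and degrades Cxcl12 and Cxcl11. Its signal was 12.02, 11.92, 11.48 and 11.75 in normoxia, 11.87, 11.87, 12.14 and 11.50 in hypoxia, and 12.40, 12.55 and 12.37 with SU5416. As with Cxcl12, the 3 SU5416 arrays lay above all others while normoxia and hypoxia overlapped. The difference was 0.65 from normoxia (SE 0.17, 1.57-fold, limma adjusted p = 0.185, between 0.0723 and 0.397 over the alternatives) and 0.59 from hypoxia (SE 0.17, 1.51-fold, limma adjusted p = 0.460, between 0.223 and 0.729).

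Cxcr4, the receptor through which Cxcl12 signals, did not show this order. Its brightest probe set read 11.27, 10.94, 10.94 and 11.02 in normoxia, 10.61, 10.61, 10.75 and 11.46 in hypoxia, and 10.65, 10.83 and 11.29 with SU5416, and all groups overlapped. SU5416 differed from normoxia by −0.12 (95% interval −0.63 to 0.39) and from hypoxia by 0.07 (95% interval −0.44 to 0.57). Over its 3 probe sets the differences from normoxia ran from −0.12 to 0.32 with SU5416 and from −0.29 to −0.05 in hypoxia.

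The 250 bases before the RefSeq start of Cxcl12 (GRCr8, chr4:152060531-152060780, plus strand) are shown because this gene had the smallest adjusted p of the 45 in SU5416 against hypoxia. Capitals mark the bases CACGC, which are the core GCGTG of a site for the aryl hydrocarbon receptor read on the other strand, 69 to 65 bases before the start.
Cxcl12: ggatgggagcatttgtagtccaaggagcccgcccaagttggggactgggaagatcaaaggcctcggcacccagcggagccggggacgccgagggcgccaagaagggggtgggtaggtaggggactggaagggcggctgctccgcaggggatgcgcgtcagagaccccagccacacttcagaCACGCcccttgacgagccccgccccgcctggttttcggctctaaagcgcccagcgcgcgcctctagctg
This core, searched on both strands, was present in 25.9% of 33469 promoter windows of the same length, so that a match is common. It was also present before Ackr3, Ccl20, Ccr1, Ccr2, Cxcl14, Cxcl2 and Cxcr4.

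Markers of the stromal cells that make Cxcl12 differed between the same groups. Of 5 fibroblast markers, 5 were higher with SU5416 than in normoxia (median 0.56), with a summed signal of 14.27 to 14.32 on the SU5416 arrays against 13.40 to 14.20 in normoxia and 13.64 to 14.25 in hypoxia. Of 5 smooth muscle markers, 5 were higher than in normoxia (median 0.77) and 5 than in hypoxia (0.62), with 13.77 to 13.96 against 13.01 to 13.39 and 13.07 to 13.57. Endothelial markers went the other way. Of 7 measured, 6 were lower with SU5416 than in normoxia (median −0.13) and 6 than in hypoxia (−0.18). Their summed signal was 14.54 to 14.69 with SU5416, against 14.70 to 15.04 in normoxia and 14.78 to 14.85 in hypoxia. The part of these cell types in the Cxcl12 and Ackr3 differences was not tested.

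Ccl21 and Ccl19 are the ligands of Ccr7, which has no probe set here, and they draw dendritic cells and naive T cells into lymphatic vessels and lymph nodes. Ccl21 stood at 10.07, 10.23, 10.06 and 10.33 in normoxia, at 10.80, 10.83, 10.59 and 10.63 in hypoxia, and at 10.87, 10.81 and 11.43 with SU5416. Every hypoxic array, with or without SU5416, lay above every normoxia array, and the 2 hypoxic groups overlapped. Hypoxia exceeded normoxia by 0.54 (SE 0.15, 1.45-fold, limma adjusted p = 0.295, between 0.198 and 0.522 over 20 alternatives). With SU5416 the difference from normoxia was 0.86 (SE 0.16, 1.82-fold, limma adjusted p = 0.0925, between 0.0227 and 0.292). It was called in 2 of the 20, with dim probe sets left out and with the trend and robust options (limma adjusted p = 0.0227 and 0.0262). SU5416 and hypoxia differed by 0.32 (95% interval −0.03 to 0.68), or by 0.13 without SU5416 array 3.

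Ccl19 was more variable, with 8.58, 8.57, 8.86 and 7.82 in normoxia, 8.74, 9.09, 8.84 and 8.40 in hypoxia, and 8.92, 9.10 and 8.93 with SU5416. The SU5416 arrays lay above those of normoxia (difference 0.53, SE 0.24, limma adjusted p = 0.406, between 0.243 and 0.597 over 20 alternatives) and overlapped with hypoxia, which exceeded normoxia by 0.31 (95% interval −0.18 to 0.80). Without normoxia array 4, the lowest, the differences were 0.31 with SU5416 and 0.10 in hypoxia. In the RefSeq gene order Ccl19 lies between Ccl21, with 1 gene between them, and Ccl27, an adjacent gene known for the skin homing of T cells through Ccr10. Ccl27 differed by −0.15 (SE 0.19) in hypoxia and by −0.12 (SE 0.21) with SU5416 from normoxia.

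Ccl21 is made by lymphatic endothelium, and the markers of that cell type differed among themselves. All 5 were above background, and their summed signal was 12.65 to 13.17 in normoxia, 11.38 to 12.40 in hypoxia and 11.96 to 12.21 with SU5416, so that every hypoxic array lay below every normoxia array. In hypoxia, where Ccl21 was higher, 5 of 5 markers were lower than in normoxia as deposited (median −0.26). The brightest of them, Lyve1, a hyaluronan receptor also found on macrophages, stood 1.44 below normoxia in hypoxia and 1.21 below with SU5416 (limma adjusted p = 0.249 and 0.196). With SU5416 against normoxia the other 4 of 5 were higher, also after either other scaling (median of all 5 markers 0.23, or 0.06 without normoxia arrays 1 and 2), among them the secreted proteins Mmrn1 by 0.92 and Reln by 0.38 (limma adjusted p = 0.173 and 0.292) on arrays that did not overlap. With SU5416 against hypoxia 5 of 5 were higher, also after either other scaling (median 0.51), Mmrn1 by 0.96 and Reln by 0.65. Their part in the Ccl21 differences was not tested.

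**Figure D3:**
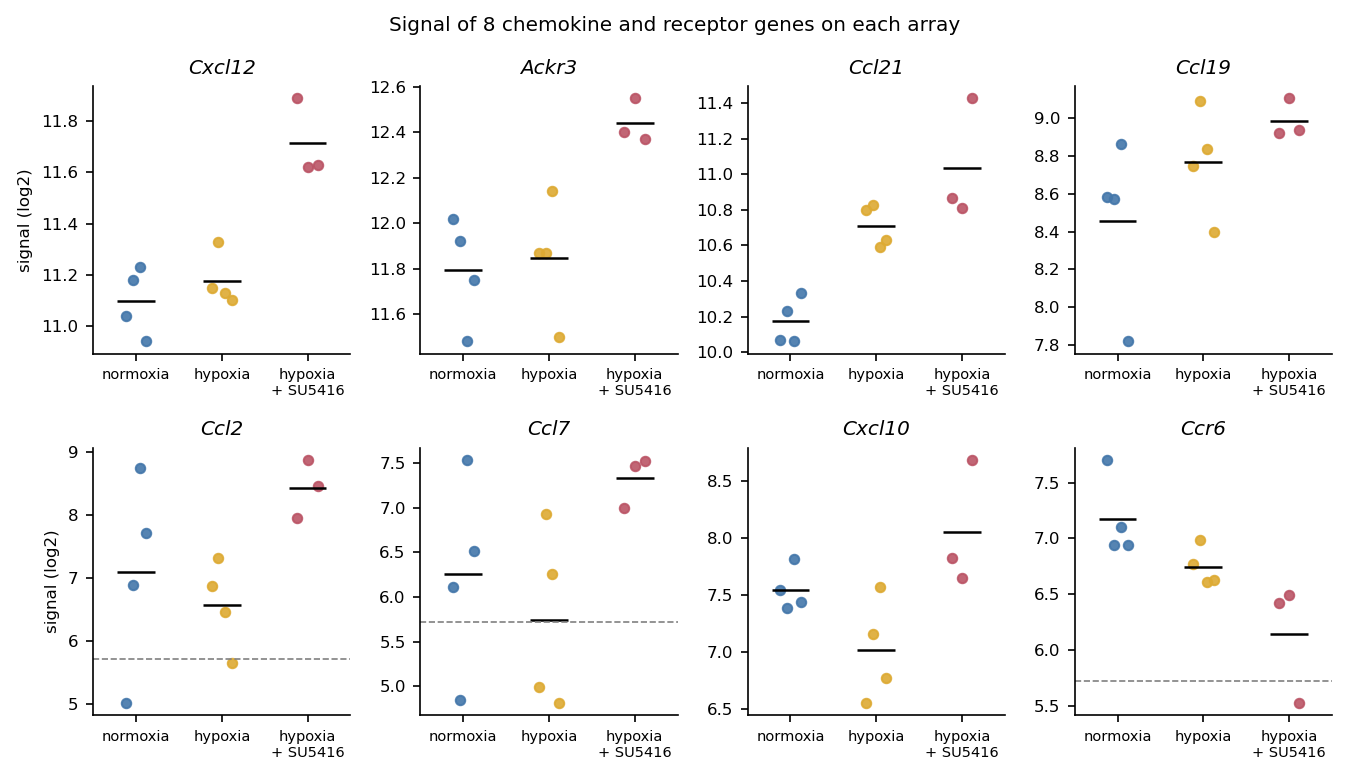
Signal (log2, vertical axis, a separate scale for each gene) of 8 chemokine and receptor genes on each array of normoxia (n = 4), hypoxia (n = 4) and hypoxia with SU5416 (n = 3); points are arrays, solid lines are group means and the dashed line is the background level of 5.72. The SU5416 arrays lie above all others for Cxcl12 and Ackr3, above the hypoxia arrays for Ccl2, Ccl7 and Cxcl10, and below all others for Ccr6.

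Cxcl13 attracts B cells to lymphoid follicles through Cxcr5. It read 8.26, 8.44, 8.87 and 7.50 in normoxia, 8.68, 8.72, 7.99 and 8.15 in hypoxia, and 9.07, 8.51 and 9.38 with SU5416. The groups overlapped, although the mean with SU5416 was 0.72 above normoxia (SE 0.33, limma adjusted p = 0.418), or 0.46 without normoxia array 4, and 0.60 above hypoxia (SE 0.33). Cxcr5 itself, on its brighter probe set, stood at 10.04, 9.96, 10.07 and 10.10 in normoxia, 10.16, 9.88, 9.73 and 9.94 in hypoxia, and 10.27, 10.28 and 10.03 with SU5416. Its difference between SU5416 and hypoxia was 0.27 (95% interval −0.00 to 0.54), and its groups overlapped in each comparison.

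Ccr6 is the receptor for Ccl20 on B cells, T helper 17 cells and some dendritic cells. It was the only member lower with SU5416 on arrays that did not overlap. Normoxia read 7.71, 6.94, 7.11 and 6.95, hypoxia 6.77, 6.99, 6.61 and 6.62, and SU5416 6.42, 6.49 and 5.53, the last under the background level. The 3 SU5416 arrays were the lowest of all 11. The difference from normoxia was −1.03 (SE 0.26, limma adjusted p = 0.175, between 0.138 and 0.395 over 19 alternatives) and from hypoxia −0.60 (SE 0.26, limma adjusted p = 0.649, between 0.322 and 0.901). Without SU5416 array 3 the difference from hypoxia was −0.29. Ccl20, its ligand, overlapped in all groups, at 7.68, 8.13, 8.75 and 7.79 in normoxia, 7.88 to 8.14 in hypoxia and 8.09 to 8.25 with SU5416.

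B cell markers were lower in the same groups. Of 6 measured, 6 were lower in hypoxia (median −0.47) and 6 with SU5416 (−0.63) than in normoxia, also after either other scaling, and their summed signal was 11.72 to 11.88 in normoxia, 11.21 to 11.77 in hypoxia and 10.98 to 11.13 with SU5416. All 6 were above background in at least 1 group. The B cell scaffold Bank1 stood 1.43 below normoxia and the antibody joining chain Jchain 1.09 below with SU5416 (limma adjusted p = 0.0766 and 0.117). Their part in the Ccr6 difference was not tested.

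Ccl2 and its neighbour Ccl7 call monocytes out of the marrow and into tissue through Ccr2. Ccl2 stood at 5.02, 6.89, 8.74 and 7.71 on normoxia arrays 1 to 4, at 6.87, 7.31, 6.46 and 5.66 in hypoxia, and at 7.94, 8.87 and 8.46 with SU5416. The SU5416 arrays lay above every hypoxia array, whereas normoxia overlapped with both other groups. The difference between SU5416 and hypoxia was 1.85 (SE 0.74, 3.60-fold, limma adjusted p = 0.624, between 0.251 and 0.848 over 19 alternatives), the largest of the 45 genes. Against normoxia it was 1.33 (95% interval −0.33 to 2.99), and 0.64 without normoxia array 1, 0.20 without normoxia arrays 1 and 2, or 0.24 with the beta-actin gap as a covariate. Hypoxia differed from normoxia by −0.52 (95% interval −2.05 to 1.02), by −1.65 without those 2 arrays and by 0.03 without normoxia array 3.

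Ccl7 repeated this order at a lower signal. It read 6.12, 4.84, 7.54 and 6.51 in normoxia, 4.99, 6.93, 6.26 and 4.82 in hypoxia, and 7.0, 7.46 and 7.53 with SU5416. The lowest SU5416 array lay just above the highest hypoxia array, and 1 normoxia and 2 hypoxia arrays were under the background level. SU5416 exceeded hypoxia by 1.58 (SE 0.64, 3.00-fold, limma adjusted p = 0.628, between 0.367 and 0.863) and normoxia by 1.08 (95% interval −0.36 to 2.51). The latter came to 0.61 when normoxia array 2 was left out and to 0.31 when array 1 was left out as well. Ccl11, an eosinophil attractant next to Ccl7 in the RefSeq gene order, differed by −0.15 (SE 0.26) between SU5416 and hypoxia.

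The 250 bases before the start of Ccl7 (GRCr8, chr10:67513845-67514094, plus strand) are shown for the second largest difference between SU5416 and hypoxia, Ccl2 having no entry among the RefSeq promoters used.
Ccl7: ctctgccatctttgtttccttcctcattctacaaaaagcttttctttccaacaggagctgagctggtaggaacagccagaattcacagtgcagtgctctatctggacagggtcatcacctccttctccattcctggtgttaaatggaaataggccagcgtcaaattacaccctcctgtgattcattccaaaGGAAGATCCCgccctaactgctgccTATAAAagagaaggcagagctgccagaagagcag
Capitals mark a match to the NF-kappaB consensus, on the other strand and 59 to 50 bases before the start, and a TATA box (TATAAA, gene strand alone) at 34 to 29 bases. The NF-kappaB consensus, searched on both strands, was present in 6.33% of all 33469 windows and the TATA box in 8.06%.

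Receptors of the monocyte chemokines were nearer to each other across groups. Ccr2 read 5.78, 6.74, 7.67 and 7.28 in normoxia, 7.22, 6.22, 6.73 and 6.93 in hypoxia, and 6.80, 7.57 and 6.91 with SU5416, and all groups overlapped. Its difference between SU5416 and hypoxia was 0.32 (95% interval −0.61 to 1.26), or 0.08 without SU5416 array 2. Ccr1, which binds Ccl3, Ccl5, Ccl6, Ccl7 and Ccl9 on monocytes and neutrophils, read 7.35, 8.34, 8.62 and 8.84 in normoxia, 8.30, 8.44, 8.35 and 7.86 in hypoxia, and 8.86, 8.63 and 8.91 with SU5416. Its SU5416 arrays lay above those of hypoxia (difference 0.56, SE 0.31, limma adjusted p = 0.757) and overlapped with normoxia.

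Most macrophage markers were higher on the same arrays. Of 11 measured, 9 were higher with SU5416 than in hypoxia (8 after centring on the median, median 0.27), and 10 were above background, the integrin Itgam not. Their summed signal was 14.28 to 14.58 with SU5416, above all arrays of hypoxia (13.92 to 14.11) and normoxia (14.01 to 14.20). The complement genes C1qa, C1qb and C1qc differed most, by 1.28, 1.55 and 1.27 from hypoxia (limma adjusted p = 0.123, 0.365 and 0.284). The macrophage growth factor receptor Csf1r differed by 0.01 (SE 0.14), and Cd163 and Mertk were lower, at −0.35 and −0.1. Against normoxia 8 of the 11 were higher with SU5416 and 3 lower, among them Lyz2 at −0.25. The part of macrophages in the Ccl2, Ccl7 and Ccr1 differences was not tested.

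The other CC chemokines of inflammation differed by less. Ccl5, made by T and NK cells, stood at 11.13, 11.32, 11.14 and 11.35 in normoxia, 10.55, 10.57, 11.13 and 10.76 in hypoxia, and 10.48, 10.56 and 11.46 with SU5416. All 4 hypoxia arrays lay at or under the lowest normoxia array, with array 3 level with it, and SU5416 array 3 stood apart from the other SU5416 arrays as the highest of all. Hypoxia differed from normoxia by −0.48 (SE 0.22, limma adjusted p = 0.461). Its RefSeq neighbours Ccl9, Ccl6, Ccl3 and Ccl4 differed by −0.20 to 0.04 in hypoxia from normoxia, and by −0.12 to 0.31 between SU5416 and hypoxia. Ccl3 and Ccl4 are macrophage inflammatory proteins, and Ccl6 and Ccl9 are rodent ligands of Ccr1.

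Cxcl9, Cxcl10 and Cxcl11 are induced by interferons and attract activated T and NK cells through Cxcr3. Cxcl10 read 7.54, 7.39, 7.81 and 7.44 in normoxia, 6.55, 7.16, 7.57 and 6.77 in hypoxia, and 7.82, 7.65 and 8.69 with SU5416. Its SU5416 arrays lay above those of hypoxia, the lowest by a narrow margin, and overlapped with normoxia. The difference from hypoxia was 1.04 (SE 0.29, 2.06-fold, limma adjusted p = 0.442, between 0.225 and 0.781 over 19 alternatives), from 0.72 to 1.25. Against normoxia, SU5416 was 0.51 higher (95% interval −0.14 to 1.16, or 0.19 higher without SU5416 array 3) and hypoxia 0.53 lower (95% interval −1.14 to 0.07).

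Cxcl11 was at its lowest in hypoxia. Its signal was 8.11, 7.8, 7.73 and 7.60 in normoxia, 7.44, 7.32, 7.39 and 7.66 in hypoxia, and 7.74, 7.74 and 7.88 with SU5416. SU5416 exceeded hypoxia by 0.33 (SE 0.14, limma adjusted p = 0.637) on arrays that did not overlap, and differed from normoxia by −0.02 (95% interval −0.33 to 0.29). Hypoxia differed from normoxia by −0.35 (SE 0.13, limma adjusted p = 0.379), or by −0.21 without normoxia arrays 1 and 2, with 1 hypoxia array above the lowest normoxia array. Cxcl9, adjacent to Cxcl10, differed by 0.12 (95% interval −0.17 to 0.40) between SU5416 and hypoxia. Cxcr3 overlapped in all groups, at 7.88, 7.37, 7.89 and 7.94 in normoxia, 7.91, 7.94, 7.65 and 7.74 in hypoxia, and 8.11, 7.43 and 7.87 with SU5416, with a difference of 0.04 (95% interval −0.39 to 0.46) between SU5416 and normoxia.

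The 250 bases before the start of Cxcl10 (GRCr8, chr14:15988816-15989065, plus strand) are shown as those of the interferon-induced member with the largest difference.
Cxcl10: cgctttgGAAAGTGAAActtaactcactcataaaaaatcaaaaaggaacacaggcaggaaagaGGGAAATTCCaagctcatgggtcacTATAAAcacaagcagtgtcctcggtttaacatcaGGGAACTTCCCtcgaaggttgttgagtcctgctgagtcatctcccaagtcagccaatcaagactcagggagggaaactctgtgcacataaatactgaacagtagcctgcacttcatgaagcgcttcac
Capitals mark, from left to right, the core of an interferon response element, which is GAAA, any 2 bases and GAAA (243 to 234 bases before the start), an NF-kappaB match (187 to 178), a TATAAA (162 to 157), and overlapping NF-kappaB matches on both strands (128 to 118). The interferon core, searched on both strands, was present in 3.41% of all windows and, among the members with an entry, also before Ccl19. NF-kappaB matches were also found before Ccl20, Ccl9, Ccr3, Cxcl1, Cxcl11, Cxcl2 and Cxcl6. The HIF core ACGTG, present in 16.6% of all windows and sharing its last 4 letters with GCGTG, was found before Ccl28, Cxcl2, Cxcl9 and Xcl1. RefSeq promoters were at hand for 35 of the 45 genes (77.8%), under the 80% needed to compare the members with other genes as a list, so the matches are given gene by gene alone.

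Markers of T and NK cells were lower in both hypoxic groups and did not separate SU5416 from hypoxia. Of 14 measured, 13 were lower in hypoxia than in normoxia and 14 with SU5416 (12 and 13 after centring on the median), with medians of −0.38 and −0.36, and 7 of 14 were higher with SU5416 than in hypoxia. All 14 were above background, and their summed signal was 13.09 to 13.29 in normoxia, 12.58 to 13.20 in hypoxia and 12.43 to 13.38 with SU5416. Array 3 of the SU5416 group was the highest of all 11 in that sum, as it was for Cxcl10, Ccl5 and Ccl21. Within its group that array was the highest for 11 of the 45 members (24.4%, against 30.0% of all genes). It was the lowest of its group for 13, among them Ccl4. The part of these cells in those values was not tested.

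Cxcl1, Cxcl2 and Cxcl3 attract neutrophils through Cxcr2. They are close paralogs, so a probe set of one may take up RNA of another, and their values are uncertain to that extent. Cxcl3, on its brightest probe set, read 12.76, 13.15, 13.16 and 13.03 in normoxia, 13.21, 12.97, 12.96 and 13.25 in hypoxia, and 13.47, 13.28 and 13.38 with SU5416. The SU5416 arrays lay above all others, by 0.35 over normoxia (SE 0.13, 1.28-fold, limma adjusted p = 0.330, between 0.173 and 0.581) and by 0.28 over hypoxia (SE 0.13, limma adjusted p = 0.698). A second bright probe set of Cxcl3 gave the same order, with 12.83, 12.63 and 12.63 on the SU5416 arrays against 11.61 to 12.35 on the others. Another was at background in normoxia, and its mean with SU5416 lay 1.78-fold above the background level, while the remaining pair overlapped across all groups. The 5 Cxcl3 probe sets were all higher with SU5416 than in normoxia, by 0.02 to 1.37, and 4 of 5 than in hypoxia.

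Cxcl1 and Cxcl2 overlapped across all groups. Cxcl1 read 8.25, 8.75, 9.32 and 8.99 in normoxia, 9.03, 8.10, 9.04 and 8.57 in hypoxia, and 8.90, 9.13 and 8.66 with SU5416, a difference of 0.21 (95% interval −0.43 to 0.85) between the last 2 groups. Cxcl2 read 7.30, 7.17, 8.76 and 7.81 in normoxia, 8.44, 7.61, 7.78 and 7.34 in hypoxia, and 7.98, 8.33 and 8.20 with SU5416, a difference of 0.38 (95% interval −0.46 to 1.21) from hypoxia, between 0.23 and 0.59 with 1 array left out. Cxcl6, a further neutrophil attractant of the same RefSeq cluster, had group means of 5.82, 5.64 and 5.76, at or near background.

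Of the neutrophil receptors, Cxcr2 was near background. It read 7.55, 5.31, 4.74 and 4.84 in normoxia, 4.52, 5.46, 4.92 and 5.63 in hypoxia, and 5.96, 5.77 and 6.77 with SU5416. Normoxia array 1 was the highest of all 11, and the SU5416 arrays lay above those of hypoxia, with the lowest just above background. The hypoxia mean was at background, and the SU5416 mean lay 1.37-fold above the background level. The 2 means differed by 1.03 (SE 0.62, 95% interval −0.36 to 2.42, limma adjusted p = 0.787, between 0.344 and 0.936). The adjacent Cxcr1 differed by 0.26 (SE 0.30) between SU5416 and hypoxia. Neutrophil markers had a summed signal of 11.53 to 12.86 in normoxia, 12.04 to 12.84 in hypoxia and 12.84 to 13.50 with SU5416, with 5 of 6 above background and Camp not. Of these, Lcn2, which epithelium also makes, stood 2.11 above normoxia with SU5416 (limma adjusted p = 0.207), whereas the neutrophil proteins S100a8 and S100a9 stood 0.45 and 0.43 below normoxia. Their part in the Cxcr2 and Cxcl3 values was not tested.

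Cx3cl1, or fractalkine, is anchored on endothelium and holds monocytes that carry Cx3cr1. Cx3cl1 overlapped in all groups, at 9.60, 9.06, 9.55 and 9.70 in normoxia, 9.71, 9.12, 9.14 and 9.73 in hypoxia, and 8.97, 9.47 and 9.30 with SU5416. Its differences from normoxia were −0.05 (95% interval −0.51 to 0.40) in hypoxia and −0.24 (95% interval −0.72 to 0.25) with SU5416. Cx3cr1 read 7.96, 7.39, 8.10 and 8.06 in normoxia, 7.35, 7.36, 7.18 and 7.72 in hypoxia, and 7.78, 7.33 and 7.91 with SU5416. Hypoxia was 0.48 below normoxia (SE 0.20, 1.39-fold, limma adjusted p = 0.429, between 0.155 and 0.662 over 19 alternatives), where normoxia array 2 lay among the hypoxia arrays.

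Cxcl16 is a membrane-bound chemokine and scavenger receptor whose own receptor, Cxcr6, has no probe set here. It read 10.69, 11, 11.06 and 10.98 in normoxia, 11.20, 11.13, 11.09 and 11.26 in hypoxia, and 11.27, 10.99 and 11.20 with SU5416. The hypoxia arrays lay above those of normoxia by a narrow margin, at a difference of 0.24 (SE 0.11, 1.18-fold, limma adjusted p = 0.474, between 0.401 and 0.656). Without normoxia array 1 the difference was 0.16, and 0.15 without normoxia arrays 1 and 2. Cxcl14, made constantly by epithelium, had means of 10.85, 11.13 and 10.73 in the 3 groups, and its other probe set gave the opposite sign for SU5416 against hypoxia (0.43, against −0.40, or −0.24 without SU5416 array 3).

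Ccl17 and Ccl22 flank Cx3cl1 in the RefSeq gene order and attract T helper 2 and regulatory T cells through Ccr4. Ccl17 differed from normoxia by −0.11 (SE 0.16) in hypoxia and by −0.33 (SE 0.17) with SU5416, the latter between −0.56 and −0.13 with 1 array left out. Ccr4 differed by −0.42 (SE 0.30), or −0.72 without normoxia array 2, and by −0.27 (SE 0.32). The 2 probe sets of Ccl22 disagreed, with −0.39 and 1.35 in hypoxia against normoxia and 0.83 and −1.01 for SU5416 against hypoxia, the last of each pair from a probe set at background in normoxia and with SU5416, so no direction is given for this gene. Ccr3, the eosinophil receptor for Ccl11, differed by at most 0.20 in size in any comparison.

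Among the other atypical receptors, Ackr1, which stores inflammatory chemokines on venules and red cells, overlapped in all groups, at 7.71, 8.64, 7.48 and 7.43 in normoxia, 7.8, 7.77, 7.87 and 7.72 in hypoxia, and 7.50, 7.73 and 7.72 with SU5416. Its spread in normoxia came from array 2, at 8.64, and without normoxia arrays 1 and 2 its difference in hypoxia turned from −0.03 to 0.33. Ackr2, a scavenger of inflammatory CC chemokines, differed by 0.17 (SE 0.19) in hypoxia from normoxia on its brighter probe set, and its other probe set was at background in every group. Ackr4, which clears Ccl19 and Ccl21, stood at 9.44 ± 0.45 (SD, n = 4) in normoxia, 8.77 ± 0.53 (n = 4) in hypoxia and 9.19 ± 0.34 (n = 3) with SU5416. Hypoxia differed from normoxia by −0.68 (SE 0.30, limma adjusted p = 0.453), and by −0.29 without normoxia arrays 1 and 2.

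The 4 genes at background in every group gave no measured level. Xcl1, a chemokine of T and NK cells, had means of 4.93, 3.52 and 3.67, all below background, although its unadjusted p in hypoxia against normoxia was 0.0372. Ccl24 and Ccl28, which attract eosinophils and plasma cells, and Ccr10 had means of 3.94 to 5.31.

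Genes through which chemokine receptors act were also without a call. Of 42 genes of receptor signalling and migration, 33 were measured and 0 were called in any comparison (limma adjusted p; backgrounds as given for each comparison). The median differences were −0.01 in hypoxia and 0.07 with SU5416 against normoxia, and 0.06 between SU5416 and hypoxia, with 15, 20 and 23 of 33 higher. After centring on the median, 24, 24 and 20 of 33 were higher. At an unadjusted p below 0.05 there were 3, 2 and 0, where 9.59%, 12.7% and 7.30% of all genes were. The smallest adjusted p with SU5416 against normoxia belonged to the adhesion kinase Ptk2b (0.71 higher, limma adjusted p = 0.153), followed by the G protein brake Rgs1 (0.92 higher, limma adjusted p = 0.279). Of 9 related genes with other names (Pf4, Ppbp, Cmklr1, Ccrl2, Cmtm2a, Cklf, Rarres2, Mif and Dpp4), 0 were called. At an unadjusted p below 0.05 there were 2, 2 and 1 of them. The cytokine Mif, a ligand of Cxcr2 and Cxcr4, was 0.70 higher with SU5416 than in normoxia (limma adjusted p = 0.171). The platelet chemokines Pf4 and Ppbp, neighbours of Cxcl3, differed from normoxia by 0.12 and −0.33 with SU5416.

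Upstream cytokines and transcription factors gave no uniform direction, and 0 of 18 measured of 19 were called in any comparison. At an unadjusted p below 0.05 there were 5, 5 and 2 (of all genes, 9.59%, 12.7% and 7.30%), and 7, 10 and 9 of 18 were higher in hypoxia against normoxia, SU5416 against normoxia and SU5416 against hypoxia (10, 11 and 8 after centring on the median). The interferon-response factor Irf1 was 0.44 lower in hypoxia and 0.53 lower with SU5416 than in normoxia (limma adjusted p = 0.374 and 0.268), on arrays that did not overlap. The oxygen-regulated transcription factor Hif1a was 0.45 higher in hypoxia (limma adjusted p = 0.259). The receptor Il1r1 was 0.49 higher with SU5416 than in hypoxia (limma adjusted p = 0.442).

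**Figure D4:**
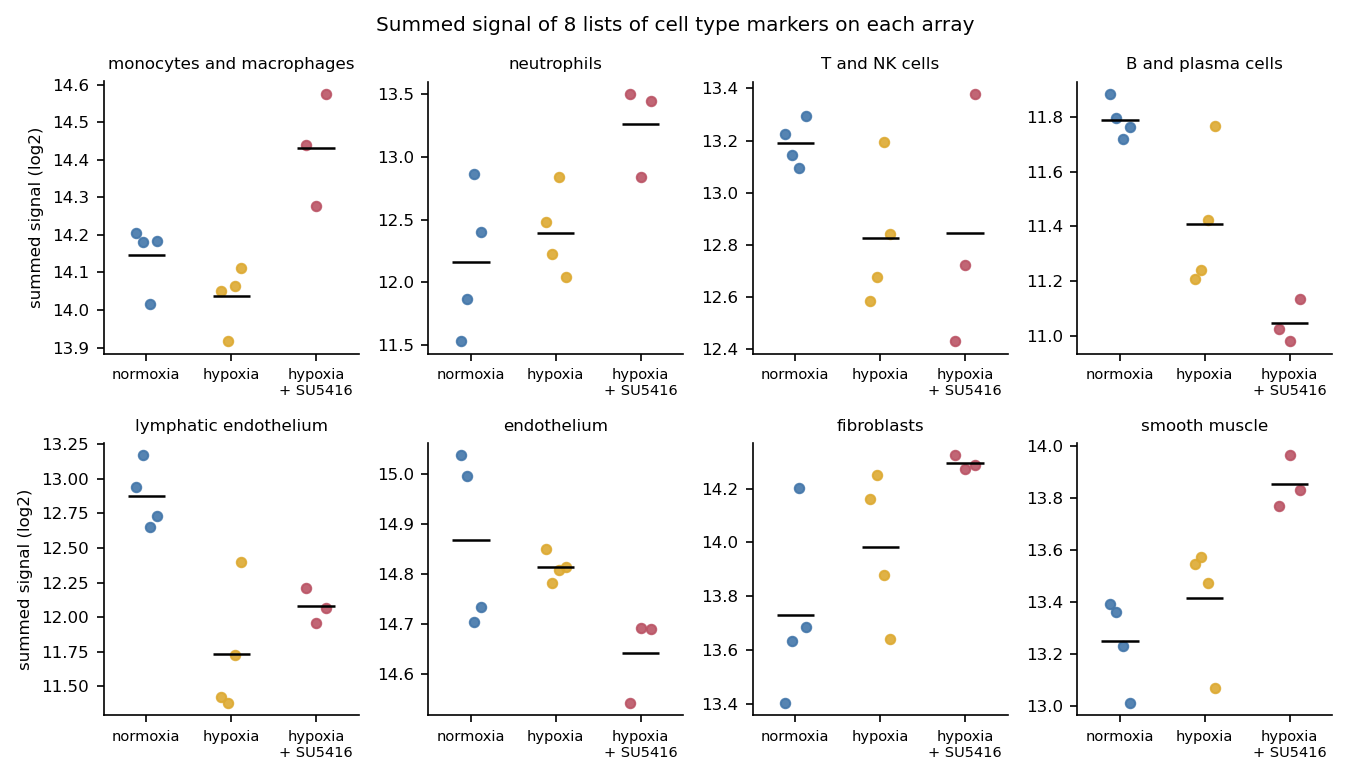
Summed signal (log2 of the sum of linear signals, vertical axis, a separate scale for each list) of markers of 8 cell types on each array; points are arrays and lines are group means. The SU5416 arrays are highest for macrophages (14.28 to 14.58), smooth muscle (13.77 to 13.96) and, by a narrow margin, fibroblasts (14.27 to 14.32). They are lowest for B and plasma cells (10.98 to 11.13) and, by a narrow margin, endothelium (14.54 to 14.69).

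The plot of summed markers shows that arrays within a group also differed. Normoxia array 3 had the highest value of its group for 18 of the 45 chemokine and receptor genes (40%, against 24.4% of all genes), among them Ccl2, Ccl7, Ccl20, Cxcl1, Cxcl2 and Ccr2. Normoxia arrays 1 and 2 had the lowest value for 16 of the 45 members each, where 28.8% and 24.0% of all genes were lowest on them. The cardiac muscle markers of normoxia ran from 9.39 to 13.66, highest on array 3. Whether tissue makeup or RNA quality sets these values was not tested.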

How the data were processed

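Lung RNA was hybridised to Affymetrix rat arrays, 1 per sample (11 arrays). The deposited values are log2 signals per probe set, summarised with RMA per the submitters' processing notes, with no version given. Distributions differ in shape between arrays, yet the linear mean is the same everywhere (500, with 2% trimmed at either end), so the summarisation is uncertain. The values were used as deposited. Of the probe sets, 57 controls were set aside and 31042 tested, 20826 of them with 1 gene symbol, updated through Entrez identifiers in RefSeq (GRCr8).

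A mean per group was fitted to all arrays with limma 3.58.1 in R 4.3.3 (lmFit, eBayes, 8 residual degrees of freedom). The tests were two-sided and Benjamini-Hochberg adjusted over all probe sets, with calls at adjusted p below 0.05. Medians and counts over genes carry no test. Values per array are given for called members, up to 6 per comparison with the largest difference among those whose arrays do not overlap, and for a fixed panel of ligands and receptors. Other members named in the text were chosen after their values were seen. The members, lists and panel were chosen with earlier results of these data known.

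Alternatives were quantile normalization, median centring, no dim probe sets, only the groups compared, trend and robust options, array weights, the replicate number as a block, the beta-actin gap as a covariate, each array left out in turn, and normoxia arrays 1 and 2 left out together. Their use for counts of arrays that do not overlap, for members outside this rule and for list counts under other scalings was chosen after seeing the data. On simulated data with 31042 probe sets, true differences of 1 were called in 46.3% (hypoxia against normoxia), 34.3% (SU5416 against normoxia) and 32.8% (SU5416 against hypoxia), and differences of 0.5 in 7.5%, 6.0% and 6.0%. In each simulation 67 probe sets carried a difference of 1 and 67 a difference of 0.5. The noise was normal with the same spread in every group, with no arrays set apart like normoxia arrays 1 and 2. The shares called depend on these settings and need not hold for the real arrays. The number of arrays limits the precision. Protein sequences were not used here. Counts and plots used matplotlib 3.10.9, pandas 2.3.3, numpy 2.4.6 and Python 3.11.15.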

Additional observations from a re-analysis of the deposited data

Results flagged for a closer look

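Of 44 groups of 4 arrays checked for a single distant array, 2 had one, where about 1 in 20 would by chance. For Cxcr4 in hypoxia, array 4 stood at 11.46 against 10.61 to 10.75 on the other 3 arrays. For Cxcr3 in normoxia, array 2 stood at 7.37 against 7.88 to 7.94 on the others.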

How the results depend on the processing

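In hypoxia against normoxia, 1 member was called without normoxia arrays 1 and 2 (Xcl1, at background in every group), where 0.319% of all probe sets were called. In SU5416 against normoxia, 2 members (Ccl21 and Cxcl12) were called with dim probe sets left out, where 1.38% of all were, 2 (the same genes) with the trend and robust options, where 0.467% were, and 1 (Ccl21) at an adjusted p below 0.10. In SU5416 against hypoxia 0 were called under any alternative. The median difference of the members in hypoxia against normoxia was −0.03 after quantile normalization, −0.027 after centring, −0.005 with dim probe sets left out and −0.208 without normoxia arrays 1 and 2. It ran from −0.157 to −0.067 with 1 array left out. In SU5416 against normoxia the median was 0.013 with the beta-actin gap as a covariate, −0.054 without normoxia arrays 1 and 2, and 0.018 (without SU5416 array 1) to 0.15 with 1 array left out. In SU5416 against hypoxia it ran from 0.136 (without hypoxia array 2) to 0.265 with 1 array left out and from 0.148 to 0.276 otherwise. Genes whose arrays did not overlap numbered 11 and 15 in the comparisons with normoxia without normoxia arrays 1 and 2, where fewer arrays make this more common (29.6% and 35.0% of all genes). Beyond fewer genes or arrays, the cause was not tested. Arrays with the same replicate number did not deviate together (correlations −0.125 to 0.128), so the numbers do not pair them. With the number as a replicate block 0, 0 and 0 members were called and the medians were −0.117, 0.08 and 0.276.

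Of 59 differences of single members followed through the alternatives, 19 changed sign in at least 1 of them. None of these was called as deposited. Precision is limited by 3 or 4 arrays a group and, for Ccl7, Cxcr2 and Ccl22, by signal near background. For Ccl2 only some arrays were under background, and its normoxia arrays ran from 5.02 to 8.74. Its difference between SU5416 and normoxia fell from 1.33 to 0.20 without normoxia arrays 1 and 2.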
